A study of Mus musculus with 9 samples.

Results

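The genes of the major histocompatibility complex (MHC) class II presentation pathway were followed in mouse liver: the chains H2-Aa, H2-Ab1 and H2-Eb1, the invariant chain gene Cd74, the transactivator gene Ciita, and the peptide exchange factor genes H2-DMa and H2-DMb1. They were picked by name, and all 7 were found, as 11 of the 41174 gene probes on the array and as 7 of the 16796 genes that were tested. Liver lobe A of male C57BL/6 mice aged 3 months was profiled on 9 single-colour arrays, 3 for each of 3 groups. The untreated group is labelled wild type. The other groups received an adeno-associated virus (AAV), a vector that carries a gene into tissues such as liver, holding either green fluorescent protein (AAV-GFP, the vector control) or the human glucocorticoid receptor in its β isoform (AAV-hGRβ), a splice form that does not bind the hormone as the α isoform does. The labels give neither the promoter of the vectors, nor their dose, nor the time after treatment, and they do not say that replicates are separate animals, so a p-value here measures the spread between these samples, which may be technical. All levels below are log2 signal minus the 75th percentile of the same array, so a level of 0 lies at that percentile.

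MHC class II molecules display peptides from proteins taken up by a cell to CD4+ T cells. An α and a β chain assemble around the invariant chain, which fills the groove and steers the complex to endosomes, where proteases trim it to a short remnant. The DM heterodimer then exchanges the remnant for a peptide. Dendritic cells, B cells and macrophages carry class II constitutively or after activation, and in liver Kupffer cells, dendritic cells and sinusoidal endothelial cells are known for it, while hepatocytes carry little. Ciita is recruited to class II promoters by a complex on the X and Y boxes and is itself induced by interferon γ.

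The stretches of 250 bases before the transcription start are shown for H2-Aa, H2-Eb1 and H2-DMb1, since the X and Y boxes are where Ciita acts. The sequences are from RefSeq on build GRCm38.p6, where 4 of the 7 genes were matched. Capitals mark the letters GNAACT (the core of an X box) and, 20 to 32 bases after it, GATTGG (an inverted CCAAT, the core of a Y box), in that order on the gene's strand.
H2-Aa, chr17:34287824-34288073, minus strand: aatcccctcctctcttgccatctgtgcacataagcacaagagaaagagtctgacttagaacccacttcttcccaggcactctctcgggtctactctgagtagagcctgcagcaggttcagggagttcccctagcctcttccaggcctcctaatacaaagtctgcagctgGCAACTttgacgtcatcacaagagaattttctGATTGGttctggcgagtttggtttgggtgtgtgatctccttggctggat
H2-Eb1, chr17:34305617-34305866, plus strand: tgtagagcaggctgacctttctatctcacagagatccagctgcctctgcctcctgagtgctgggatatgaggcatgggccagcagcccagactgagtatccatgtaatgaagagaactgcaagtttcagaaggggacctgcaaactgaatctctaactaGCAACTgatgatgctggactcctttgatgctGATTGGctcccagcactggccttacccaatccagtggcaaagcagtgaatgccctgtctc
H2-DMb1, chr17:34152941-34153190, plus strand: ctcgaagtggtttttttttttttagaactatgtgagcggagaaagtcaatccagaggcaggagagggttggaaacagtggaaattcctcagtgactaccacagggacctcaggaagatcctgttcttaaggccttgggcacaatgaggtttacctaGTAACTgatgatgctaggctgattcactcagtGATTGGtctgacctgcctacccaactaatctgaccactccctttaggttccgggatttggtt
In H2-Aa the marked letters began 81 and 49 bases before the start, in H2-Eb1 91 and 60 bases, and in H2-DMb1 94 and 62 bases, with 26, 25 and 26 bases between them. Neither of the windows of H2-DMa held the pair. These letters were chosen after reading the promoters, so the matches are a description. On the gene's strand the pair stood in the 250 bases of 66 of 27025 genes (0.244%), while GNAACT alone, on either strand, stood in 46.8% of them and GATTGG alone in 18.2%. H2-Eb2 and Icosl were the other genes with the pair among the pathway lists used below.

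Of the class II genes, 5 lie together in 175 kb of chromosome 17, by the probe positions that the array files give on build mm7, and Ciita lies on chromosome 16. H2-DMa and H2-DMb1 stand at the start of the stretch, H2-Ab1 and H2-Aa follow, and H2-Eb1 ends it. H2-Ab1 was measured by 4 probes and H2-Aa by 2, and the other genes by 1 each. The probes below are shown because they measure the classical chains, for H2-Ab1 the probe printed on most spots. All letters are in lower case because no part of them is singled out.
H2-Ab1, chr17:32345268-32345327, plus strand: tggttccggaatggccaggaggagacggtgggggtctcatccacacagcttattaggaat
H2-Aa, chr17:32362310-32362369, minus strand: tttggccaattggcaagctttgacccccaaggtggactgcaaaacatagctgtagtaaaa
H2-Eb1, chr17:32392430-32392891, plus strand: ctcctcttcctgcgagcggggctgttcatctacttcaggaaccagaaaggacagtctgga
The H2-Eb1 probe is 60 bases long and spans 462 bases of the genome, so its position holds an intron. All 11 probes were well above background on all 9 arrays, and none of their 20 spots was marked as an outlier.

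The H2-Ab1 probe shown above was printed on 10 spots of each array. Within an array these spots had a log2 SD of 0.045 to 0.061. The SD of the spot means between arrays was 0.22 in untreated, 0.44 in AAV-GFP and 0.78 in AAV-hGRβ livers. Spots of the same array share RNA, labelling and hybridisation, so their spread is that of the spots alone. Different probes of a gene moved together: over the 9 arrays the H2-Aa probes correlated at 0.991, and the pairs of H2-Ab1 probes at 0.840 to 0.987.

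**Figure D1:**
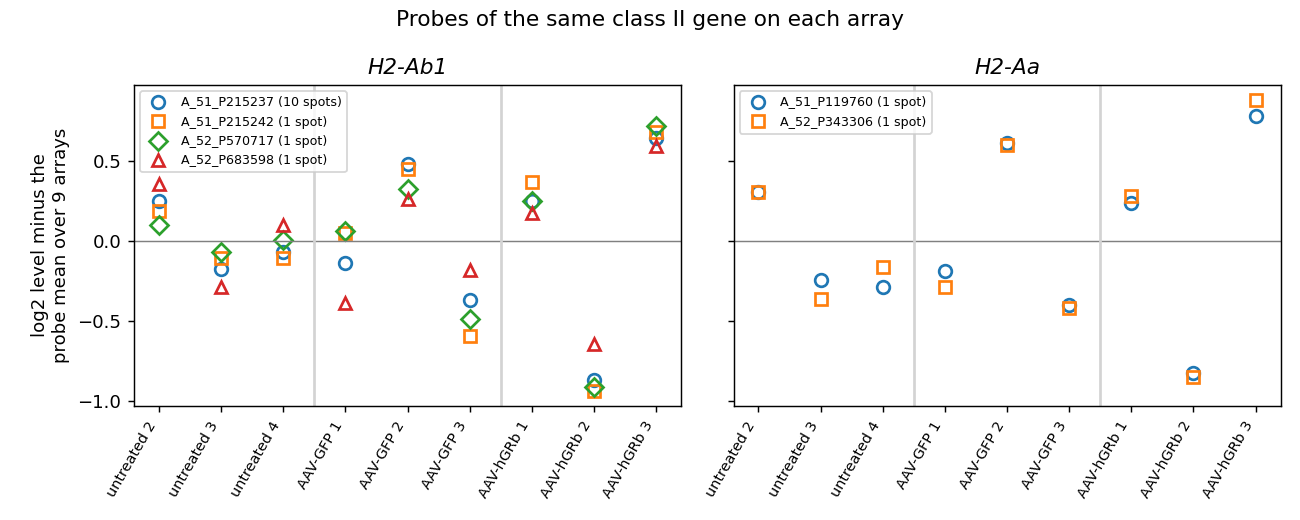
Log2 level of each probe of H2-Ab1 (left, 4 probes) and H2-Aa (right, 2 probes) on the 9 arrays, each minus that probe's mean over the arrays; grey lines separate the groups. All 6 probes were lowest on AAV-hGRβ replicate 2 and highest on AAV-hGRβ replicate 3.

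H2-Aa encodes the α chain of the A molecule, the classical class II molecule of C57BL/6 mice. It stood at -0.33, -1.0 and -0.80 in untreated replicates 2, 3 and 4. The AAV-GFP replicates 1, 2 and 3 read -0.93, -0.044 and -1.06, and the AAV-hGRβ replicates 1, 2 and 3 read -0.36, -1.49 and 0.24. The AAV-hGRβ group held both the lowest and the highest of the 9 values, and all groups overlapped. The difference of AAV-hGRβ from AAV-GFP was 0.14 (SE 0.45, limma adjusted p = 0.950), against a group SD of 0.88 for AAV-hGRβ and 0.55 for AAV-GFP (n = 3 each).

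H2-Ab1, the β chain that pairs with it, had the same highest and lowest array. Its level, from the brightest of its probes, was 3.72, 3.08 and 3.46 in untreated, 2.98, 3.62 and 3.18 in AAV-GFP, and 3.54, 2.71 and 3.96 in AAV-hGRβ livers, listed by replicate number. Both of these arrays belonged to AAV-hGRβ, and the groups overlapped. The difference from AAV-GFP was 0.14 (SE 0.33, adjusted p = 0.925), and the other probes gave 0.017, 0.066 and 0.049.

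H2-Eb1 encodes the β chain of the E molecule, whose α chain gene is not expressed in the b haplotype that C57BL/6 mice carry. Its levels were 1.81, 1.24 and 1.48 in untreated, 1.07, 1.68 and 1.35 in AAV-GFP, and 1.73, 1.13 and 2.10 in AAV-hGRβ livers. AAV-hGRβ replicate 3 was again the highest array, AAV-GFP replicate 1 was the lowest, and the groups overlapped. The difference from AAV-GFP was 0.29 (SE 0.28, adjusted p = 0.789).

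Cd74, the invariant chain, was even among untreated livers, at 3.19, 3.07 and 3.28. The AAV-GFP livers read 2.77, 3.36 and 2.47. The AAV-hGRβ livers read 3.35, 1.93 and 3.27, so that replicates 1 and 3 stood beside the untreated values and replicate 2 stood lowest of all arrays. The groups overlapped, with a mean of 2.85 ± 0.79 (SD, n = 3) in AAV-hGRβ and 2.87 ± 0.45 in AAV-GFP livers, a difference of -0.015 (SE 0.38, adjusted p = 0.992). Within scan days the difference was -0.46 for the 4 arrays of these groups scanned on the first day and 0.88 for the pair scanned on the second.

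Ciita, the transactivator of the other genes, read -3.07, -3.29 and -3.12 in untreated livers. The AAV-GFP values were -3.98, -3.66 and -2.58, and the AAV-hGRβ values were -2.56, -3.95 and -2.95. The untreated arrays lay close together and inside the range of both vector groups, in which the arrays of the second scan day were the highest. Ciita was the dimmest member. The lowest signal well above background was between -5.07 and -4.11 over the arrays, not far below its levels. The difference of AAV-hGRβ from AAV-GFP was 0.26 (SE 0.42, adjusted p = 0.891).

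H2-DMa encodes the α chain of the DM peptide exchange factor. It stood at -1.12, -1.57 and -1.93 in untreated and at -1.89, -1.57 and -1.83 in AAV-GFP livers. In AAV-hGRβ livers, replicates 1 and 3 were the highest arrays at -0.99 and -1.04, and replicate 2 was the lowest at -2.00, so the groups overlapped. The difference from AAV-GFP was 0.42 (SE 0.31, adjusted p = 0.688).

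H2-DMb1, the β chain of DM, had AAV-hGRβ arrays above both other groups. Its levels were 2.34, 2.09 and 2.47 with AAV-hGRβ, against 1.06, 1.71 and 1.95 with AAV-GFP and 2.09, 1.15 and 1.35 in untreated livers. All AAV-hGRβ arrays were above all AAV-GFP arrays, and they were above the untreated arrays by less than the rounding of the values printed here, since untreated replicate 2 and AAV-hGRβ replicate 2 both read 2.09. The mean was 2.30 ± 0.19 with AAV-hGRβ and 1.57 ± 0.46 with AAV-GFP (SD, n = 3), a difference of 0.72 (SE 0.30). The limma test gave adjusted p = 0.400 over all genes, so the difference did not pass. It was 0.89 within the first scan day and 0.38 within the second. H2-DMb2 is a closely related gene beside it, and how far the probe separates their RNAs was not tested.

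**Figure D2:**
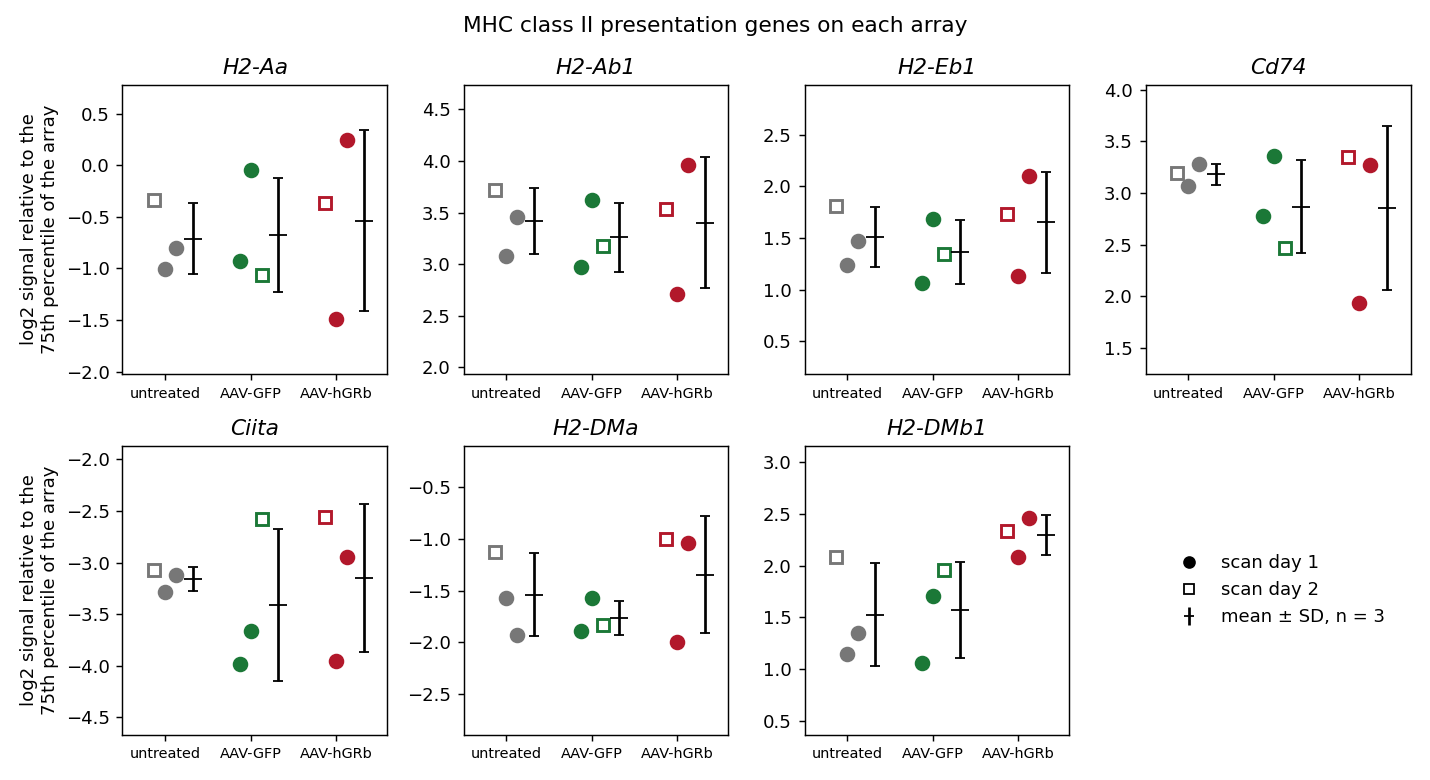
Log2 signal minus the array's 75th percentile for the 7 class II genes in the untreated, AAV-GFP and AAV-hGRβ groups (written AAV-hGRb), 1 point per array in the order of the replicate numbers, filled for scan day 1 and open for scan day 2; bars give the mean ± SD (n = 3). The groups overlap for every gene except H2-DMb1, where the AAV-hGRβ arrays lie between 2.09 and 2.47, and AAV-hGRβ replicate 2 is the lowest array of its group in every panel.

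No class II gene passed the test in AAV-hGRβ against AAV-GFP livers: 0 of 7, where 0.911% of the 16796 genes tested passed in either direction, 0.834% higher and 0.0774% lower. Adjusted p ran from 0.400 to 0.992 over the members, and 1 of 7 had an unadjusted p under 0.05, against 11.7% of all genes. The AAV-hGRβ and AAV-GFP arrays did not overlap for 1 of 7, against 15.9% of all genes, and 9.59% of all genes had all AAV-hGRβ arrays above all AAV-GFP arrays, as H2-DMb1 did. The median difference of the members was 0.26, beside 0.027 over all genes tested. Of the 7, 6 were above 0, where 53.3% of all genes were, a count that fell to 2 of 7 when arrays were scaled to their median. That scaling moved the median of all genes from 0.027 to -0.32 and the members' median to -0.087. In RNA from whole tissue, more or fewer class II bearing cells and more or less RNA per cell cannot be told apart.

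The 95% intervals of the AAV-hGRβ against AAV-GFP differences reached 0.65 to 1.01 on the log2 scale to each side of the estimate. For H2-Aa the interval ran from -0.87 to 1.15, for H2-Ab1 from -0.61 to 0.90, and for Cd74 from -0.88 to 0.85. Among the 7 members, no upper end lay above 2.67-fold, which was that of H2-DMb1. A p that misses the threshold in this design does not show that the levels were alike.

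**Figure D3:**
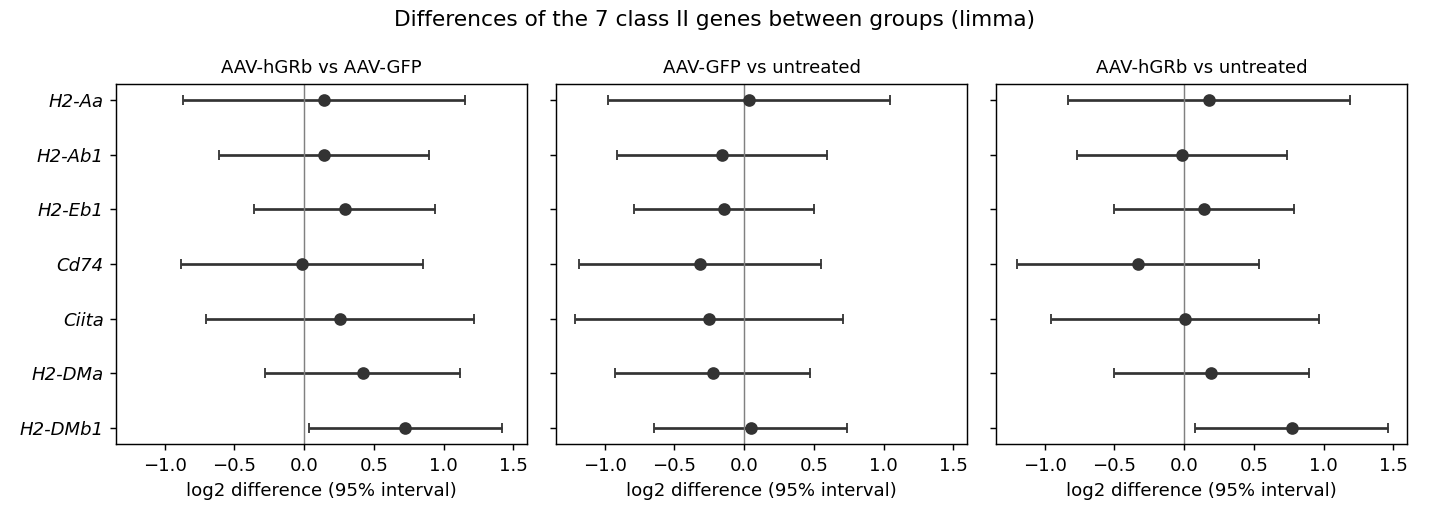
Log2 difference (points) and its 95% interval (bars) for the 7 class II genes in the 3 comparisons, from limma over all 9 arrays; the vertical line marks 0. The interval holds 0 for every gene and comparison except H2-DMb1 in both comparisons that involve AAV-hGRβ.

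The vector control is measured by AAV-GFP against untreated livers, and these comparisons share groups with each other. Again 0 of 7 members passed, and so did 0% of all genes, with 9.88% of genes and 0 of 7 members at an unadjusted p under 0.05. The members' differences ran from -0.31 for Cd74 to 0.047 for H2-DMb1, with a median of -0.16 beside 0.035 over all genes tested. Of the 7, 2 were above 0, where 53.3% of all genes were. Adjusted p was 0.701 to 0.974. No member had groups that did not overlap, against 14.9% of all genes in either direction and 5.76% with AAV-GFP higher.

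AAV-hGRβ livers were also set against untreated livers. None of the 7 passed, where 3.38% of all genes did, 2.59% higher and 0.792% lower. The differences were -0.33 for Cd74, -0.015 for H2-Ab1, 0.0073 for Ciita, 0.14 for H2-Eb1, 0.18 for H2-Aa, 0.19 for H2-DMa and 0.77 for H2-DMb1. Only H2-DMb1 had an unadjusted p under 0.05, against 25.6% of all genes, and groups that did not overlap, against 29.3% in either direction and 14.8% with AAV-hGRβ higher. Its limma adjusted p was 0.161 (SE 0.30). When untreated replicate 2 was left out, the difference was 1.05 with adjusted p = 0.0488, past the threshold (0.0488 to 0.546 over 21 alternatives). In that fit 2150 of the 16796 genes passed, against 568 in the main fit. The array left out was the only untreated array scanned on the second day. In the main fit the members' median was 0.14 beside 0.097 over all genes. Of the 7, 5 were above 0 (56.8% of all genes were), and 1 of 7 when arrays were scaled to their median.

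The AAV-hGRβ group had the largest SD of the 3 groups for 5 of 7 members, a difference in spread that was not tested; Ciita varied most with AAV-GFP and H2-DMb1 varied least with AAV-hGRβ. AAV-hGRβ replicate 2 was the lowest of its group for all 7 members and the lowest of the 9 arrays for 4. AAV-hGRβ replicate 3 was the highest of the 9 arrays for 4 members. With each gene centred on its mean over the arrays, the members' median was 0.38, -0.64 and 0.59 on AAV-hGRβ replicates 1, 2 and 3, -0.38, 0.17 and -0.18 on the AAV-GFP arrays, and 0.30, -0.27 and -0.034 on the untreated arrays. Replicates 2 and 3 of AAV-hGRβ, which were farthest apart, lay on the same slide and were scanned on the same day.

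Left out by itself, AAV-hGRβ replicate 2 changed the sizes but not the calls. Without it the differences from AAV-GFP were all above 0, from 0.44 for Cd74 to 0.83 for H2-DMb1, with 0 of 7 passing and adjusted p from 0.308 to 0.601. From untreated livers they ran from 0.13 for Cd74 to 0.88 for H2-DMb1, again with 0 of 7 passing. The array was not otherwise set aside, and 60.5% of its spots were well above background, within the range of 54.0% to 82.0% over the 9 arrays. Within its group it was the dimmest: replicates 1 and 3 had 82.0% and 68.4% of spots well above background. Its median intensity was 38.1, against 79.0 and 72.9 for replicates 1 and 3 and 37.7 for AAV-GFP replicate 2. The part of this in its low class II levels was not tested.

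Over the 9 arrays the classical chains moved together. H2-Ab1 and H2-Eb1 correlated at 0.96 (Spearman 0.97), H2-Aa and H2-Ab1 at 0.94 (Spearman 0.92), and H2-Aa and H2-Eb1 at 0.91 (Spearman 0.83). Cd74 correlated with H2-Ab1 at 0.81 (Spearman 0.70). Ciita correlated with the other members at 0.33 to 0.55. The DM chains, which work as a pair, correlated at 0.62 (Spearman 0.48), and Cd74 and H2-DMb1 at -0.0037 (Spearman 0.13). These values are a description of 9 arrays from 3 groups, which share the scaling of each array.

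By the same measure, the genes outside the pathway most like the mean of the standardised members were Akr1c18 (Pearson 0.933), Ltbp2 (0.920), Adamts2 (0.899), Ddx11 (0.898), AK005018 (0.895), Ddr1 (0.886), Sfrp1 (0.883) and Spin2c (0.883). They are the top of 16697 genes ranked over 9 arrays. For Cd74 by itself the nearest were Lhpp (0.961), Dcbld1 (0.957) and Tgfb1i1 (0.950), and for Ciita Slc52a3 (0.951), ENSMUST00000089776 (0.933) and Rrp12 (0.930).

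Of the remaining 5 class II chains and peptide editors, 2 were tested. H2-Ea, the E α chain, was not well above background on any array, and RefSeq lists it as a transcribed pseudogene. H2-Eb2 and H2-Ob did not pass the filter on dim probes. H2-DMb2, a second DM β chain, averaged -1.31 ± 0.54 in AAV-hGRβ livers and -2.08 ± 0.26 in AAV-GFP livers, a difference of 0.77 (adjusted p = 0.335). H2-Oa, the α chain of the DO protein that restrains DM, gave 0.81 (adjusted p = 0.579). Neither passed against untreated livers, with 0.82 (adjusted p = 0.137) and 0.97 (adjusted p = 0.228).

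The genes around the pathway were counted next, and no gene of these lists passed as lower in any comparison. In AAV-GFP against untreated livers 0 genes of any list passed. A gene was tested if it was well above background throughout 1 group, so a dim gene can enter a list through the group where it is high. This can move the medians of these lists and of the marker lists toward that group, and its size was not tested. Only 1 of the 5 slides held arrays of different groups, so the calls are followed by the adjusted p of a fit in which slide is a random block (estimated correlation 0.465). The list medians are also given with arrays scaled to their median, under which the median of all genes is -0.32 against AAV-GFP and -0.24 against untreated livers. Of 10 genes that process antigen and the invariant chain, 0 passed against AAV-GFP and 1 against untreated livers: Lgmn, the asparaginyl endopeptidase of lysosomes, rose by 1.36 (adjusted p = 0.049, and adjusted p = 0.302 with the slide block). Ctss, cathepsin S, which trims the invariant chain, gave 0.87 against AAV-GFP (adjusted p = 0.317). The list medians were 0.19 and 0.48, beside 0.027 and 0.097 for all genes, and -0.16 and 0.14 with arrays scaled to their median, so that the sign against AAV-GFP turned.

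The listed partners of Ciita on class II promoters, which include the coactivators Crebbp, Ep300 and Kat2b, did not pass in either comparison (0 of 9 tested). Their medians were -0.061 against AAV-GFP and -0.44 against untreated livers, where 0 of 9 were above 0, and -0.41 and -0.78 with the median scaling. Rfxap, a subunit of the X box complex, gave -0.71 against untreated livers (adjusted p = 0.123), and Rfx5 did not pass the filter on dim probes. Of 11 genes that lie on the way from interferon γ to Ciita, 0 passed against AAV-GFP. Socs1, an inhibitor of cytokine receptor signalling, gave 1.05 against AAV-GFP (adjusted p = 0.0798). The medians of this list were 0.39 against AAV-GFP and 0.58 against untreated livers, or 0.047 and 0.24 with the median scaling.

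Genes that turn over or hold back class II gave 0 of 5 against AAV-GFP and 3 of 5 against untreated livers. With the slide block all 3 calls were lost, with adjusted p = 0.302 for Marchf1, adjusted p = 0.226 for Cd83 and adjusted p = 0.163 for Il10ra. Marchf1, a ubiquitin ligase that marks class II for degradation, rose by 1.83 over untreated livers (adjusted p = 0.0473). Cd83, which opposes Marchf1 and so keeps class II at the surface, rose by 2.22 (adjusted p = 0.0327), and Il10ra, a receptor chain for interleukin 10, by 1.24 (adjusted p = 0.0271). The list medians were 1.00 and 1.24, or 0.65 and 0.90 with the median scaling.

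Surface molecules that act beside class II in antigen presentation were also counted. Of 7 tested, 1 passed against AAV-GFP and 4 against untreated livers, with medians of 1.09 and 1.63, or 0.75 and 1.29 with the median scaling. Cd80, which enters these medians, averaged -2.75 with AAV-hGRβ, -4.71 with AAV-GFP and -5.29 in untreated livers. The lowest signal well above background was between -5.06 and -4.11 on the untreated arrays. With the slide block all of these calls were lost: adjusted p = 0.126 for Cd274 against AAV-GFP, and against untreated livers adjusted p = 0.282 for Cd274, 0.293 for Cd86, 0.251 for Cd40 and 0.206 for Icam1. Cd274, the ligand PD-L1 that restrains T cells, rose by 1.19 over AAV-GFP (adjusted p = 0.0382) and by 0.95 over untreated livers (adjusted p = 0.0464). Over untreated livers, the costimulator Cd86 rose by 1.98 (adjusted p = 0.0462), the receptor Cd40 by 1.90 (adjusted p = 0.0476) and the adhesion molecule Icam1 by 0.90 (adjusted p = 0.0341). On the T cell side, 0 of 11 genes passed against AAV-GFP and 1 against untreated livers, with medians of 0.68 and 1.16, or 0.34 and 0.82 with the median scaling. Cd28, Ctla4, Cd40lg and Foxp3 did not pass the filter on dim probes. Of the genes tested, Cd3d, Cd3g and Lck are also among the T and NK cell markers below, so the medians are not those of CD4+ T cells alone. Lck, the kinase beside the T cell coreceptors, rose by 1.65 over untreated livers (adjusted p = 0.0327, and adjusted p = 0.240 with the slide block), and Cd4, the coreceptor that binds class II, gave 0.68 against AAV-GFP (adjusted p = 0.106).

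MHC class I genes and their peptide supply were taken as the nearest comparison. Of 16 tested, 0 passed against AAV-GFP and 2 against untreated livers, with medians of 0.50 and 0.43, which fell to 0.15 and 0.086 with the median scaling. The immunoproteasome subunit Psmb8 rose by 1.4 over untreated livers (adjusted p = 0.0195) and Psmb9 by 1.5 (adjusted p = 0.0227). With the slide block both calls were lost (adjusted p = 0.113 and adjusted p = 0.151). Both lie inside the class II stretch of chromosome 17 and were the 2 of 13 tested neighbours that passed there. Against AAV-GFP they gave 1.15 (adjusted p = 0.0657) and 1.21 (adjusted p = 0.0772). On the scaling of the main fit, the centred median of class I genes was 0.32, 0.31 and 0.33 on the AAV-hGRβ arrays. It was between -0.27 and -0.055 on the other 6. So on replicate 2 the class I median was above 0 and the class II median was below it. The difference between the class I and class II lists was not tested. Whether these values for single arrays hold with the median scaling was not tested either. A low replicate 2 was not particular to class II: bile duct cell markers read 0.50, -0.37 and 0.54 on the AAV-hGRβ arrays. The medians of T and NK cell, macrophage and pan-leukocyte markers were above 0 on each of these arrays.

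**Figure D4:**
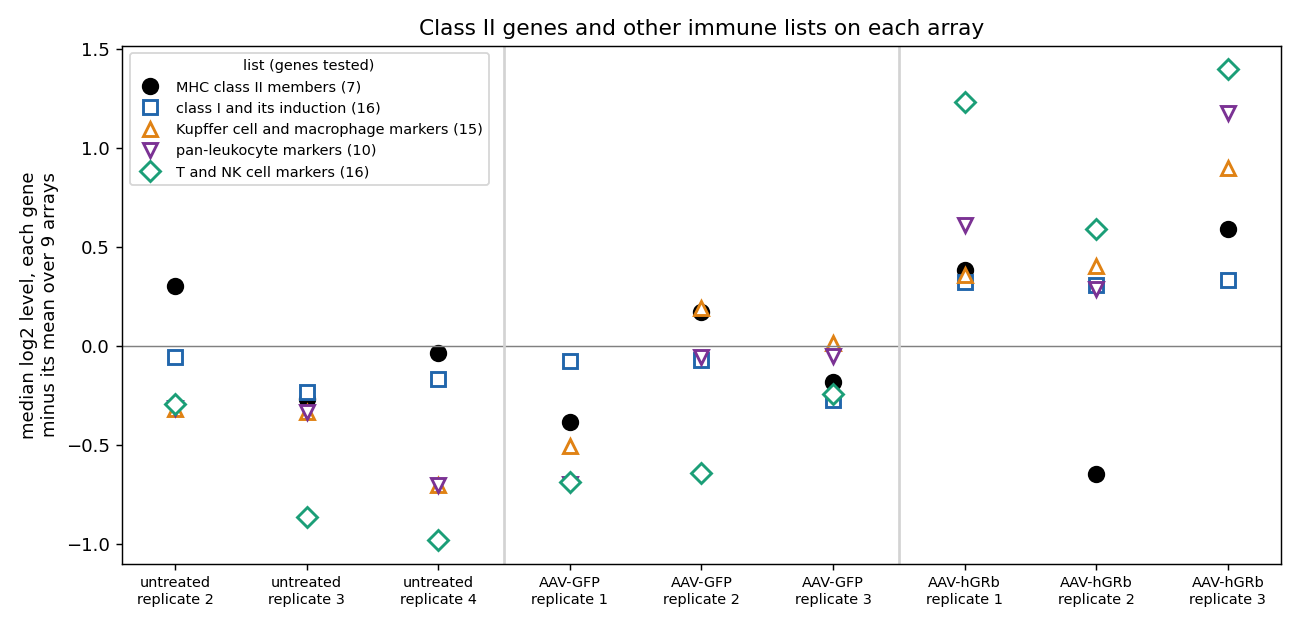
Median log2 level of the genes of each list, each gene minus its mean over the 9 arrays, on each array; grey lines separate the groups and the legend gives the genes tested. The class II median is 0.38, -0.64 and 0.59 on the AAV-hGRβ arrays, while the medians of class I genes and of T and NK cell, macrophage and pan-leukocyte markers are above 0 on all 3. All values are on the scaling of the main fit.

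Summed marker levels were compared on the scaling of the main fit. For the dendritic cell, B cell, Kupffer cell and macrophage, T and NK cell, and pan-leukocyte lists, all AAV-hGRβ arrays were above the others. Those of sinusoidal endothelial cells were not. The part of these cells in the class II values was not tested. Whether the summed levels keep this order with the median scaling was not tested either. The medians of the first 5 lists against AAV-GFP were 0.96, 0.71, 0.54, 1.45 and 0.88. With the median scaling they were 0.62, 0.37, 0.20, 1.11 and 0.53. Of 12 dendritic cell markers tested, 1 passed against AAV-GFP, Bst2 with 1.24 (adjusted p = 0.0376, and adjusted p = 0.0986 with the slide block), and 2 against untreated livers. Their summed level, the log2 of the added signals, was 6.33 to 6.90 in untreated, 6.59 to 7.10 in AAV-GFP and 7.96 to 8.26 in AAV-hGRβ livers. Bst2, the brightest of the list, carries most of this sum, with means of 6.54, 6.80 and 8.04. The centred median of the list was 0.12 on AAV-hGRβ replicate 2 and 0.16 on AAV-GFP replicate 3, so by the median these groups overlapped. Cd209a and Irf4 did not pass the filter on dim probes. Of 10 B cell markers, 0 and 1 passed, and the summed level was 1.15 to 1.52, 0.79 to 1.67 and 1.87 to 2.44. Cd79a, Pax5, Blk and Ebf1, which define B cells, did not pass the filter on dim probes.

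Kupffer cell and macrophage markers gave 1 of 15 higher against AAV-GFP and 3 against untreated livers. Mpeg1, a pore-forming protein of macrophages, rose by 1.55 over AAV-GFP (adjusted p = 0.00668), and Clec4f, a lectin of Kupffer cells, by 1.17 over untreated livers (adjusted p = 0.0357, and adjusted p = 0.240 with the slide block). The summed level was 6.93 to 7.27, 7.0 to 7.76 and 8.20 to 8.65 in untreated, AAV-GFP and AAV-hGRβ livers. On these summed levels, in the scaling of the main fit, the AAV-hGRβ arrays lay above both other groups. The summed level of the 7 class II genes was 4.48 to 4.97, 4.30 to 4.93 and 4.13 to 5.20, so that all groups overlapped.

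Other leukocyte markers were counted in the same way. Of 16 T and NK cell markers, 4 rose against AAV-GFP and 6 against untreated livers, and the list had summed levels of 1.58 to 1.76, 1.64 to 1.87 and 2.70 to 3.86. Gzma, a granzyme of cytotoxic lymphocytes, rose by 3.73 over AAV-GFP (adjusted p = 0.0105). Cd8a, the coreceptor of cytotoxic T cells, averaged -1.20 ± 1.05 (SD, n = 3) in AAV-hGRβ livers and was higher than in AAV-GFP livers (adjusted p = 0.00848). None of its 3 probes was well above background on an AAV-GFP array, so the size of its difference is not given. Monocyte and neutrophil markers gave 1 of 9 and 2 of 9 higher, with summed levels of 5.29 to 6.55, 6.09 to 7.67 and 6.81 to 7.93, where the vector groups overlapped. Pan-leukocyte markers gave 0 of 10 and 2 of 10 higher, with summed levels of 4.45 to 4.83, 4.47 to 5.26 and 5.56 to 6.33.

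None of the 12 sinusoidal endothelial, 12 stellate cell, 7 bile duct and 14 hepatocyte markers tested passed in any comparison. The summed level of the endothelial markers was 5.34 to 5.79 in untreated, 5.36 to 6.15 in AAV-GFP and 5.27 to 5.58 in AAV-hGRβ livers, so that all groups overlapped. The medians of the 4 lists against AAV-GFP were -0.23, -0.17, 0.23 and -0.26, or -0.57, -0.52, -0.11 and -0.61 with the median scaling. The tissue label was checked on the hepatocyte markers, all 14 of which were measured, with a summed level of 11.99 to 12.63 over the 9 arrays.

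Over all lists, with slide as a random block, 3 of the 8 listed genes that passed against AAV-GFP still did (Mpeg1, Gzma and Cd8a), and 2 of the 27 that passed against untreated livers (Mpeg1 and Gzma).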

How the data were processed

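Total RNA (500 ng per sample) was labelled with Cy3 and hybridised to single-colour Agilent arrays, per the labels' protocols. Per the file headers, the processed spot intensity is linear, with background removed within the array and no scaling between arrays. Per the submitters' processing notes, the authors used Agilent Feature Extraction 9.5, and the deposited series table held the same intensity values.

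Control and outlier spots were left out, spots of a probe were averaged as log2 values, and each array's 75th percentile was subtracted. Probes had to be well above background on every array of 1 group or more, which 24273 were. Where several remained for a gene, the brightest on average was used. Probes were named through RefSeq names for GRCm38.p6, where 22951 matched by accession; Ciita is listed under an older symbol. Differences were tested two-sided in R 4.3.3 with lmFit and eBayes of limma 3.58.1 on all 9 arrays (6 residual degrees of freedom), with Benjamini-Hochberg adjustment over 16796 genes at 0.05. The number of arrays limits the precision. The test was checked on simulated data with independent noise on each array. It recovered 61% of log2 changes of 1.5 and 97% of log2 changes of 3, with 3.66% false calls. Smaller changes, such as those of the members, and a correlation within slides were not simulated.

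Members, lists and motifs were chosen with earlier results of these data known. All members are named, as are up to 4 genes per list that passed, or else the 2 with the smallest p, and the genes most like the members; not every such gene of the marker lists is printed, and 1 gene of a pathway list is not reported here. Alternatives covered background correction, scaling, the filter, the choice of probe, scan day, slide, replicate number and leaving out each array.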

Additional observations from a re-analysis of the deposited data

How the results depend on the processing

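The count of class II genes that passed was 0 in each comparison under all alternatives except 1: without untreated replicate 2, H2-DMb1 passed for AAV-hGRβ against untreated livers (1 gene, log2 difference 1.05, adjusted p = 0.0488, with adjusted p between 0.0488 and 0.546 over 21 alternatives). In that fit 2150 of the 16796 genes passed in this comparison, against 568 in the main fit. Directions of the differences turned under several alternatives, for Ciita and H2-DMa among others, and the cause was not tested. For AAV-hGRβ against AAV-GFP, a normexp background correction gave -0.063 for H2-Aa, 0.52 for Cd74, -0.78 for Ciita and -0.17 for H2-DMa, and Ciita read -0.014 when bright local backgrounds were also replaced. Scaling to the array median gave -0.20 for H2-Aa, -0.20 for H2-Ab1, -0.055 for H2-Eb1 and -0.087 for Ciita. Quantile normalization gave 0.047 for Cd74 and -0.089 for Ciita. Cd74 read 0.31 with a random slide block and 0.88 with a fixed slide block, and the latter rests on the slide that held both groups. For AAV-GFP against untreated livers, normexp gave 0.065 for Ciita, 0.098 for H2-DMa and -0.051 for H2-DMb1, and the random slide block gave -0.12 for H2-Aa. For AAV-hGRβ against untreated livers, normexp gave 0.49 for H2-Ab1, 0.052 for Cd74, -0.72 for Ciita and -0.070 for H2-DMa, and -0.032 for Ciita with bright backgrounds replaced. The array median gave -0.16 for H2-Aa, -0.20 for H2-Eb1, -0.33 for Ciita and -0.15 for H2-DMa, and moved the median of all genes from 0.10 to -0.24. The mean of the probes gave 0.011 for H2-Ab1, quantile normalization -0.27 for Ciita, and the random slide block -0.047 for Ciita.

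Leaving out each array in turn gave, against AAV-GFP, -0.25 to 0.62 for H2-Aa, -0.13 to 0.49 for H2-Ab1, -0.26 to 0.44 for Cd74 and -0.041 to 0.67 for Ciita. For AAV-GFP against untreated livers it gave -0.28 to 0.23 for H2-Aa, -0.30 to 0.0069 for H2-Eb1, -0.66 to 0.036 for Ciita and -0.14 to 0.33 for H2-DMb1. For AAV-hGRβ against untreated livers it gave -0.21 to 0.65 for H2-Aa, -0.29 to 0.33 for H2-Ab1, -0.078 to 0.41 for H2-Eb1, -0.58 to 0.13 for Cd74, -0.29 to 0.41 for Ciita, 0.58 to 1.05 for H2-DMb1, and 0 to 1 genes that passed.

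Deviations of samples with the same replicate number correlated at -0.32 to 0.24, and those with different numbers at -0.45 to 0.57. Most samples with the same number were scanned on different days, so these values cannot settle whether the numbers pair samples. With the replicate number as a block, 0 members passed in each comparison, and against untreated livers AAV-hGRβ gave 0.043 for H2-Ab1 and -0.056 for H2-DMa. With 3 arrays per group, differences of the size of the intervals could not be resolved. All member probes were well above background on all 9 arrays, but the background correction still turned the signs given above.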
